A study of Homo sapiens with 18 samples.

Results

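The genes described here are 26 genes of cholesterol synthesis and its control by the sterol regulatory element binding proteins (SREBPs), chosen by name, as members of the pathway. Of the 26, 25 were matched to a transcript cluster, the array's unit for a gene, and FDFT1, squalene synthase, is not analysed here. They are followed in 2 human prostate cancer lines that respond to androgen, LNCaP and VCaP, over 18 arrays in 12 groups. R1881 is a synthetic androgen, given against ethanol vehicle after 3 days in charcoal-stripped serum, which is poor in steroids (2.5% serum for LNCaP and 5% for VCaP). All cells were transfected with an siRNA 48 h before the hormone, so the siControl cells are transfected as well.

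The arrays fall into 4 sets, as read from the array names. The labels do not say over which arrays the values were scaled. LNCaP set 1 holds siControl and siCTBP1-AS, each with vehicle and with 10 nM R1881. LNCaP set 2 holds siControl and an siRNA labelled siCTBP1-AS #2, each with vehicle and with 1 nM R1881. LNCaP set 3 holds siControl and siPSF, each with vehicle and with 10 nM R1881. The VCaP set holds siControl, siCTBP1-AS #2 and siPSF, each with vehicle and with 1 nM R1881. Each siRNA and treatment has 1 array in each set, so siControl in LNCaP has 3 arrays per treatment and siPSF in LNCaP has 1. CTBP1-AS is an RNA transcribed antisense to CTBP1, and PSF is the RNA-binding protein encoded by SFPQ. What "#2" denotes and how long the hormone was given are not stated in the sources used here. Nothing in the labels says that arrays of a group came from separate cultures, so p-values measure the spread between these arrays, which may be technical.

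Cholesterol is made in the endoplasmic reticulum and cytosol from acetyl-CoA by way of mevalonate, isoprenoid diphosphates, squalene and lanosterol. When membrane sterol is low, the escort protein SCAP carries the precursors of SREBP1 (gene SREBF1) and SREBP2 (gene SREBF2) to the Golgi, where proteases release the part that enters the nucleus and activates genes of the pathway. INSIG1 and INSIG2 hold SCAP back in the endoplasmic reticulum when sterol is plentiful, and INSIG1 is itself a target of the SREBPs. Androgens are known to raise sterol synthesis in prostate cancer cells.

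Values are log2 signals deposited by the authors, and the sets differ in scale, with set medians of 5.74 to 6.8. Differences were therefore read within a set. Within sets, arrays correlated at 0.98 to 0.992, and no 2 arrays held identical values. The marker lists followed the labels. Luminal prostate markers averaged 9.95 to 12.53, and ERG, which is overexpressed in VCaP, was 9.01 to 12.11 in VCaP and 3.91 to 5.03 in LNCaP. The androgen target KLK3 rose with R1881 by 1.54 ± 0.22 (log2, SE, 6 pairs) in LNCaP and by 2.09 ± 0.31 (SE, 3 pairs) in VCaP. SFPQ, the target of siPSF, fell by 0.79 ± 0.11 in LNCaP (limma adjusted p = 0.0143) and by 1.44 ± 0.11 in VCaP (limma adjusted p = 0.000344). The level of CTBP1-AS is not analysed here.

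Promoter windows of 300 bases, most of them upstream of the transcription start and the last 50 past it, are shown for 4 genes that carry the results below, from RefSeq on GRCh38.p14. RefSeq windows matched 23 of the listed genes, in 31 windows. They were searched on both strands for the sterol regulatory element core TCACNCCAC, for the CCAAT box, the letters that nuclear factor Y binds, and for the androgen receptor full element, GNACA and TGTNC with 3 bases between them. The core was found in 1 of the 31 windows, that of SREBF2, against 1.12% of 34796 windows in the table. CCAAT was found in 19 of the 31 windows and in 17 of 23 genes, against 34.6% of all windows. The androgen receptor letters were found in 0 of the 31 windows, against 0.391% of all windows. A match is a run of letters, not a bound site. SREBF2 is shown because its window holds the core, which starts at position -133 from the transcription start. HMGCS1, INSIG1 and NSDHL, chosen after the matches were seen, are shown because their R1881 responses are described below. Each is printed 5′ to 3′ on the strand of the gene, and capitals mark the core and the CCAAT box, which reads ATTGG where it lies on the opposite strand. The windows are HMGCS1, chr5:43313363-43313662, minus strand; INSIG1, chr7:155297628-155297927, plus strand; SREBF2, chr22:41832855-41833154, plus strand; and NSDHL, chrX:152830813-152831112, plus strand.
HMGCS1: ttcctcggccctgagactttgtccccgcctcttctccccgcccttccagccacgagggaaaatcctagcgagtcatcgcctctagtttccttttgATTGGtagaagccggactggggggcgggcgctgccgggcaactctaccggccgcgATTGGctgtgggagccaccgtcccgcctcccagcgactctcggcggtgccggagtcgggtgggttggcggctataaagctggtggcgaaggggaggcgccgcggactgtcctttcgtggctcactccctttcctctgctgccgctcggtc
INSIG1: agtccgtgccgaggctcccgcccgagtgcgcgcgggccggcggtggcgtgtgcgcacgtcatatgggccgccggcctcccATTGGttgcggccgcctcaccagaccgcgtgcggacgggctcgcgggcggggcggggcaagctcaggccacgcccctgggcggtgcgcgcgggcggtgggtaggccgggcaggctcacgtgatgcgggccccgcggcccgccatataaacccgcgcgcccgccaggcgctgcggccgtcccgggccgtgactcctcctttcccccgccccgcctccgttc
SREBF2: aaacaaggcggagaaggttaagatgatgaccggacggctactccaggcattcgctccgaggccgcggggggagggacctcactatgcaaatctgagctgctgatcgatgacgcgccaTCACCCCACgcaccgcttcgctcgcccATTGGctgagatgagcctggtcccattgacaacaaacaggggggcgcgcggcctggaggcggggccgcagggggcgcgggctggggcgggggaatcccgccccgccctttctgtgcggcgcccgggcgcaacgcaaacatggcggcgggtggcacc
NSDHL: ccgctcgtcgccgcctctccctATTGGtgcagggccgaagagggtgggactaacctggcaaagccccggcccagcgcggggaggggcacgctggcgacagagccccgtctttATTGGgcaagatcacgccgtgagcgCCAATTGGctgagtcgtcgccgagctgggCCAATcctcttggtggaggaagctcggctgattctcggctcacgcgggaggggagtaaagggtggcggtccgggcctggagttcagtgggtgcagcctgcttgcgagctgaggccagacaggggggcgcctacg
HMGCS1 has a second RefSeq window, chr5:43313132-43313431, not printed, in which none of the 3 motifs was found. The CCAAT letters occur 2 times in the printed HMGCS1 window, 1 time each in those of INSIG1 and SREBF2, and 5 times in that of NSDHL, where 2 of the occurrences overlap.

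The first comparison asks how R1881 moved these genes. In LNCaP, 18 of the 25 genes rose with R1881 and 1, INSIG2, fell, from the mean of 6 vehicle and R1881 pairs, each pair sharing set and siRNA. The median log2 change of the 25 genes was 0.48, against -0.01 over all 14249 transcript clusters tested. In VCaP, 20 of the 25 rose and INSIG2 again fell, with a median of 0.80 against 0.01. A gene counts as risen or fallen at a limma adjusted p under 0.05, and by that rule 18.4% of all clusters were called in LNCaP (9.36% higher and 9.03% lower) and 29.8% in VCaP (14.0% higher and 15.8% lower). In single pairs, 18 of the 25 genes were higher with R1881 in all 9 pairs of both lines and INSIG2 was lower in all 9, against 7.50% and 6.76% of all clusters. The pairs' own medians over the 25 genes ran from 0.21 in LNCaP set 2 with siCTBP1-AS to 0.73 in LNCaP set 2 with siControl, and from 0.73 to 0.92 in VCaP. In the R1881 and knockdown fits, each SE comes from 1 residual variance per gene, shared by both lines and moderated over clusters. The VCaP SEs and p-values are therefore not a measure of VCaP spread alone. The SD of the VCaP pairs was 0.05 for SQLE, 0.21 for HMGCS1, 0.44 for STARD4 and 0.57 for INSIG1. In LNCaP it was 0.31, 0.58, 0.36 and 0.59.

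**Figure D1:**
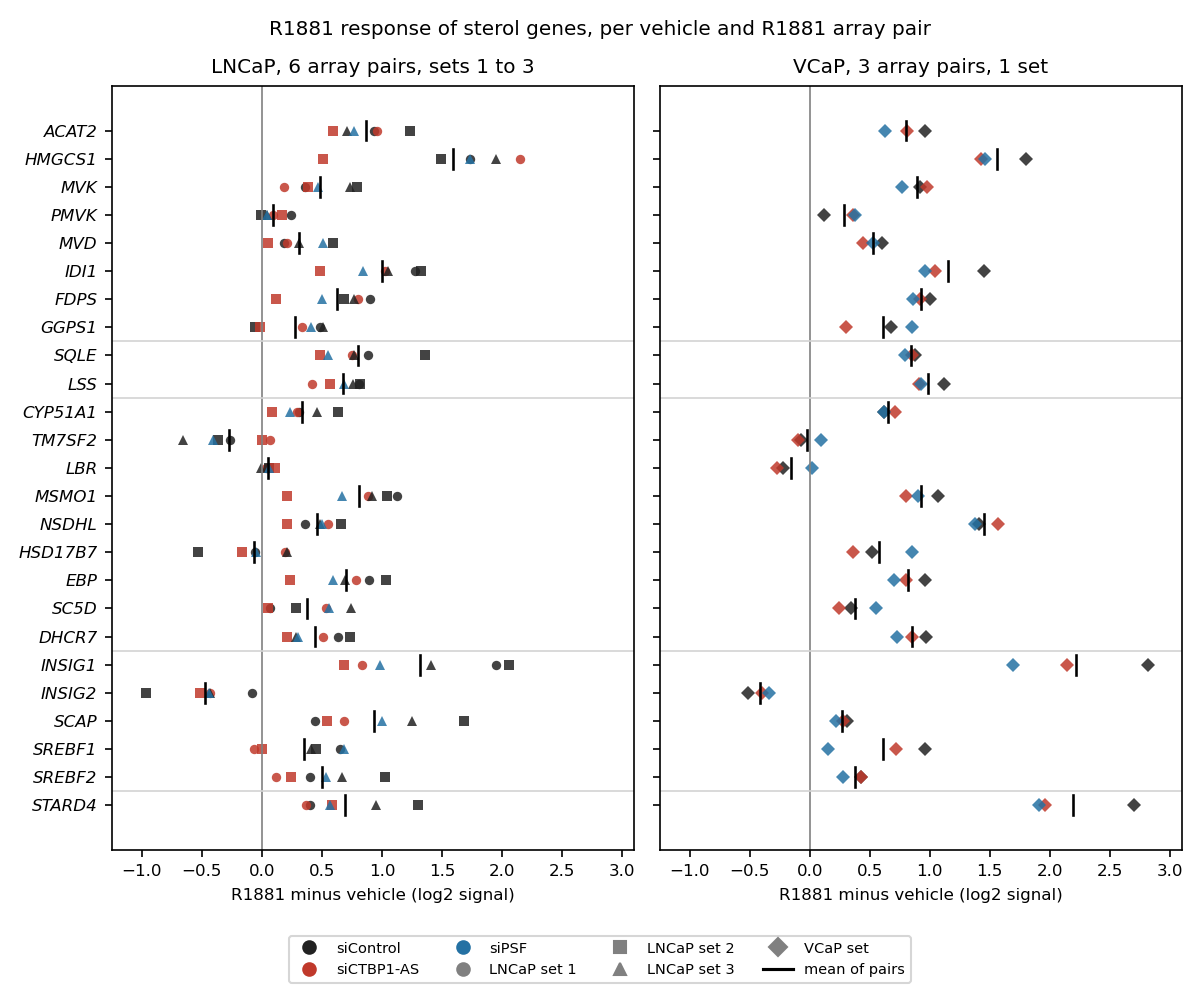
Differences in log2 signal between R1881 and vehicle for the 25 genes (rows, grouped by role) in each of 6 LNCaP pairs (left) and 3 VCaP pairs (right). Colours give the siRNA, shapes the array set, and black bars the mean of the pairs. Most genes lie right of 0 in every pair, while INSIG2 lies left of it in all 9.

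The early steps, from acetyl-CoA to the isoprenoid diphosphates, are made by 8 of the genes, of which 6 rose in LNCaP and all 8 rose in VCaP. HMGCS1, the cytosolic HMG-CoA synthase, was the member with the largest change in LNCaP. With siControl, its log2 signal went from 8.78 to 10.51 in set 1, from 8.19 to 9.67 in set 2 and from 9.32 to 11.27 in set 3. With siCTBP1-AS it went from 8.96 to 11.10 in set 1 and from 8.91 to 9.42 in set 2, and with siPSF from 8.79 to 10.52. In VCaP it went from 9.31 to 11.11 with siControl, from 9.26 to 10.68 with siCTBP1-AS and from 10.12 to 11.58 with siPSF. Within each set, the R1881 arrays lay above all vehicle arrays, and the smallest step was that of siCTBP1-AS in set 2. The mean change was 1.59 ± 0.17 (SE, 6 pairs), or 3.02-fold, in LNCaP (limma adjusted p = 7.58e-05) and 1.56 ± 0.23 (SE, 3 pairs), or 2.96-fold, in VCaP (limma adjusted p = 0.000586).

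IDI1, which isomerises isopentenyl diphosphate, rose by 1.00 ± 0.11 in LNCaP and 1.15 ± 0.15 in VCaP. Its single-pair differences ran from 0.48 to 1.32 in LNCaP and from 0.96 to 1.45 in VCaP. ACAT2, the thiolase that joins 2 acetyl-CoA, rose by 0.86 ± 0.08 and 0.80 ± 0.12, a change of nearly the same size in both lines. FDPS, which makes farnesyl diphosphate, rose by 0.62 ± 0.09 and 0.92 ± 0.13. It has further clusters, shared with the pseudogene FDPSP2, whose mean changes were 0.48 and 0.49 in LNCaP and 0.63 and 0.56 in VCaP, all in the same direction. MVK, mevalonate kinase, rose by 0.48 ± 0.08 in LNCaP and 0.89 ± 0.11 in VCaP. MVD, the decarboxylase that yields isopentenyl diphosphate, rose by 0.31 ± 0.07 and 0.52 ± 0.10. The kinase between them, PMVK, and GGPS1, which extends farnesyl to geranylgeranyl diphosphate, passed in VCaP at 0.28 ± 0.08 and 0.61 ± 0.13. The PMVK call was lost without the siCTBP1-AS pair or without the siPSF pair, and the GGPS1 call without the siPSF pair. In LNCaP their changes were 0.09 ± 0.06 and 0.27 ± 0.10, which did not pass (limma adjusted p = 0.307 and 0.0684).

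Both measured enzymes between squalene and lanosterol rose in both lines. SQLE, squalene epoxidase, rose by 0.80 ± 0.10 in LNCaP and 0.84 ± 0.14 in VCaP. LSS, lanosterol synthase, which closes the sterol rings, rose by 0.68 ± 0.07 and 0.99 ± 0.09. No pair of either line showed a lower value with R1881 for these genes.

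Of the 9 genes that convert lanosterol to cholesterol, 6 rose in LNCaP and 7 in VCaP. MSMO1, the methyl sterol oxidase, rose by 0.81 ± 0.10 in LNCaP and 0.92 ± 0.15 in VCaP. EBP, the sterol isomerase, rose by 0.70 ± 0.09 and 0.82 ± 0.13, and DHCR7, which reduces the last precursor, by 0.44 ± 0.08 and 0.85 ± 0.11. CYP51A1, lanosterol demethylase, rose by 0.33 ± 0.07 and 0.65 ± 0.10, and its other cluster moved by 0.30 and 0.70. SC5D, the sterol desaturase, rose by 0.37 ± 0.09 in LNCaP and 0.38 ± 0.13 in VCaP, where its limma adjusted p was 0.0496. The SC5D calls were lost without some pairs: in LNCaP without siControl replicate 3 or without siPSF replicate 1, and in VCaP without any 1 of the 3 pairs.

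NSDHL, a dehydrogenase that removes sterol carbon, rose in both lines. In LNCaP its signal went from 9.52 to 9.88 and from 9.62 to 10.17 in set 1, from 9.22 to 9.88 and from 9.70 to 9.90 in set 2, and from 10.20 to 10.67 and from 10.06 to 10.56 in set 3, siControl first in each set. In VCaP it went from 9.21 to 10.62 with siControl, from 8.78 to 10.35 with siCTBP1-AS and from 9.34 to 10.73 with siPSF. The largest of the 6 LNCaP steps was 0.66 and the smallest of the 3 VCaP steps was 1.38. The mean change was 0.46 ± 0.07 in LNCaP (limma adjusted p = 0.000576) and 1.46 ± 0.09 in VCaP.

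The sterol reductases TM7SF2 and LBR passed in neither line. TM7SF2 had a change of -0.27 ± 0.09 in LNCaP (limma adjusted p = 0.0514) and -0.03 ± 0.12 in VCaP. LBR, which is also the lamin B receptor of the nuclear envelope, had changes of 0.05 ± 0.05 and -0.16 ± 0.08. HSD17B7, the keto reductase that acts after NSDHL, is read by a cluster shared with the pseudogene HSD17B7P2, so its values are uncertain. They moved by -0.07 ± 0.10 in LNCaP, without passing, and rose by 0.58 ± 0.14 in VCaP, a call lost without the siPSF pair.

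The genes that sense sterol split. INSIG1 rose and INSIG2 fell in both lines. With siControl, INSIG1 went from 8.64 to 10.58 in set 1, from 7.53 to 9.59 in set 2, from 9.60 to 11.02 in set 3 and from 8.09 to 10.91 in VCaP. With siCTBP1-AS it went from 9.74 to 10.57 in set 1, from 7.67 to 8.35 in set 2 and from 8.19 to 10.33 in VCaP. With siPSF it went from 8.95 to 9.93 in LNCaP and from 9.48 to 11.17 in VCaP. Within each set, both R1881 arrays, or all 3 in VCaP, lay above the vehicle arrays. The mean change was 1.32 ± 0.19, or 2.49-fold, in LNCaP (limma adjusted p = 0.000665) and 2.21 ± 0.27, or 4.64-fold, in VCaP (limma adjusted p = 0.000178).

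INSIG2 with siControl went from 8.48 to 8.40 in set 1, from 8.03 to 7.06 in set 2, from 8.32 to 7.89 in set 3 and from 8.26 to 7.75 in VCaP. With siCTBP1-AS it went from 8.22 to 7.79 in set 1, from 7.90 to 7.38 in set 2 and from 8.05 to 7.65 in VCaP, and with siPSF from 8.38 to 7.94 in LNCaP and from 7.98 to 7.64 in VCaP. All 9 steps were downward, the smallest being siControl in set 1, where the R1881 array lay above the siCTBP1-AS vehicle array. INSIG2 fell by 0.48 on the log2 scale (SE 0.09) in LNCaP (limma adjusted p = 0.00373) and by 0.42 (SE 0.13) in VCaP (limma adjusted p = 0.0299). The VCaP call was lost without any 1 of the 3 pairs.

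SCAP, the escort protein, rose by 0.93 ± 0.14 in LNCaP (limma adjusted p = 0.000704), with steps of 0.44 to 1.68. In LNCaP with siControl it went from 9.25 to 9.69 in set 1, from 8.21 to 9.88 in set 2 and from 9.48 to 10.72 in set 3. In VCaP its steps were small and alike, 0.22 to 0.31 (SD 0.05), and their mean of 0.27 ± 0.19 did not pass (limma adjusted p = 0.328). That SE holds the wider spread of the LNCaP pairs (SD 0.47), so the result is not a measure of VCaP spread. SREBF2, which encodes SREBP2, rose by 0.50 ± 0.10 in LNCaP, and its change of 0.38 ± 0.14 in VCaP did not pass (limma adjusted p = 0.0626). Its steps had an SD of 0.32 in LNCaP and 0.09 in VCaP, so the same limit holds. SREBF1 had a change of 0.35 ± 0.12 in LNCaP, which did not pass (limma adjusted p = 0.0638), and rose by 0.61 ± 0.17 in VCaP. The SREBF1 call in VCaP was lost without the siControl pair or without the siCTBP1-AS pair.

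STARD4, a cytosolic protein that moves sterol between membranes, rose in both lines. In LNCaP it went from 7.91 to 8.31 in set 1, from 6.46 to 7.76 in set 2 and from 8.20 to 9.15 in set 3 with siControl. In VCaP it went from 5.22 to 7.92 with siControl, from 5.25 to 7.21 with siCTBP1-AS and from 6.30 to 8.21 with siPSF. The 6 LNCaP steps were 0.37 to 1.30 and the 3 VCaP steps 1.91 to 2.70. The mean change was 0.70 ± 0.13 in LNCaP (limma adjusted p = 0.00365) and 2.19 ± 0.19, or 4.57-fold in signal, in VCaP. The VCaP vehicle signals with siControl and siCTBP1-AS were low, above 26.6% and 25.7% of all genes on their arrays, and no detection call was used here, so how much of them is background is not known.

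**Figure D2:**
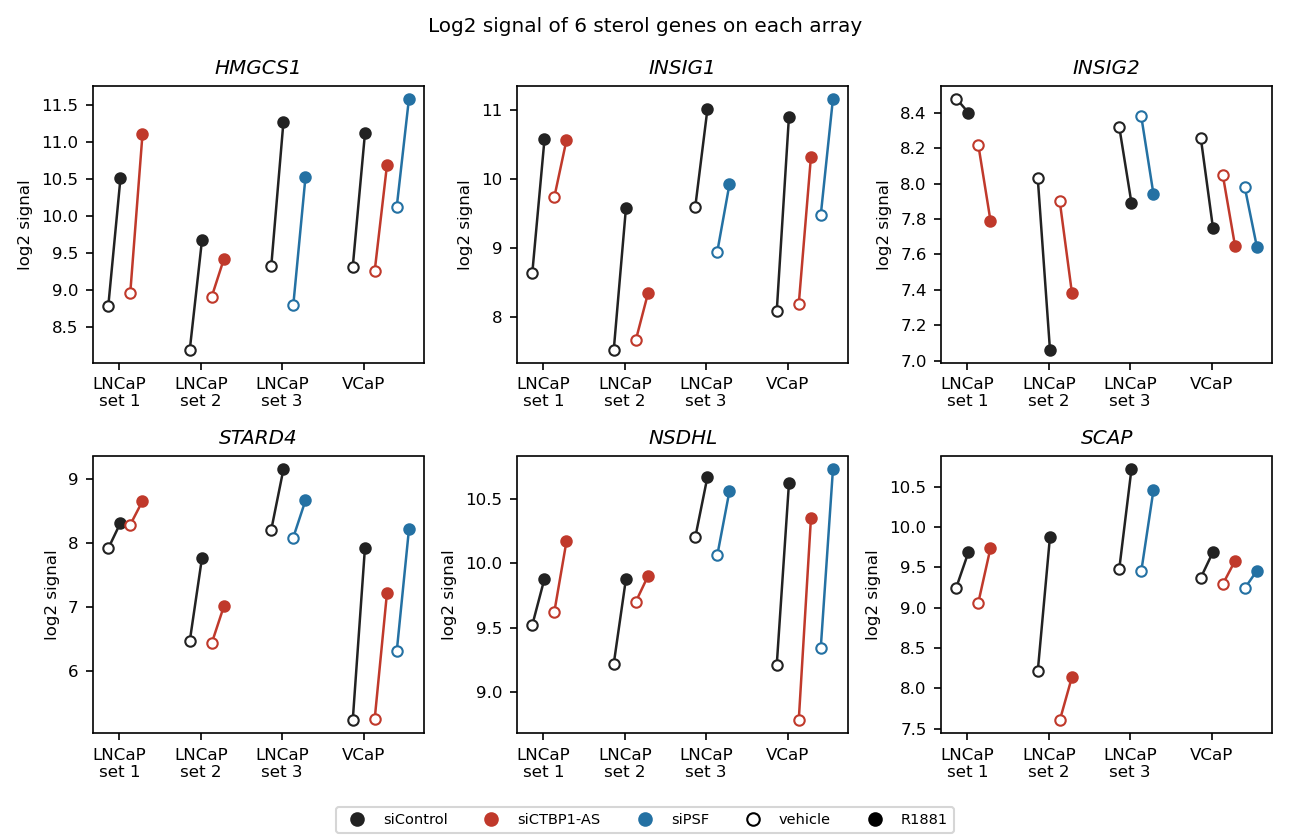
Log2 signal (y axes, each with its own range) of 6 genes on each of the 18 arrays, by array set (x axes). Open circles are vehicle, filled circles R1881, and lines join arrays of the same set and siRNA. INSIG2 is the only one of these 6 genes whose lines run downward. Slopes cannot be compared between panels. In VCaP the mean changes were 2.21 for INSIG1, 2.19 for STARD4, 1.56 for HMGCS1, 1.46 for NSDHL and 0.27 for SCAP.

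These R1881 calls rest on reading each R1881 array against its own vehicle array. Without the pair as a block, 1 gene, HMGCS1, passed in LNCaP and 1, NSDHL, in VCaP, with the same mean changes, and 1.21% and 0.688% of all clusters were called. With the 3 siControl arrays per treatment in LNCaP alone and no block, 0 of the 25 genes passed in the limma fit, and 0.253% of all clusters were called (0.225% higher and 0.0281% lower). At an unadjusted p under 0.05 there were 4 of the 25 and 330 of the 14249 clusters. With the replicate number as a block, 13 of the 25 passed, all 13 higher with R1881, against 5.13% of all clusters called. The changes were led by INSIG1 at 1.81 (limma adjusted p = 0.00255), HMGCS1 at 1.72 (limma adjusted p = 0.00182) and IDI1 at 1.21 (limma adjusted p = 0.00314).

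In VCaP, LUM, 1 of 4 fibroblast markers checked, was also lower with R1881. Its vehicle arrays read 9.74 with siControl, 8.58 with siCTBP1-AS and 10.1 with siPSF, and the R1881 arrays 4.86, 5.15 and 6.8. COL1A1 at 6.82 to 7.06, COL1A2 at 5.41 to 5.77 and DCN at 3.43 to 4.03 stayed within narrow ranges over the VCaP arrays. The mean of the 4 markers was 6.15 to 6.55 with vehicle and 5.21 to 5.67 with R1881. The part of this in the VCaP responses was not tested, and in RNA from whole cultures fewer cells of a kind and less RNA per cell cannot be told apart.

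The R1881 responses of VCaP and LNCaP were set against each other in the same fit. VCaP responded more than LNCaP in 3 of the 25 genes and less in 0, against 11.5% of all clusters called (5.21% higher and 6.25% lower). The difference was 1.50 ± 0.23 for STARD4 (limma adjusted p = 0.00221), 1.00 ± 0.11 for NSDHL (limma adjusted p = 0.000356) and 0.65 ± 0.17 for HSD17B7 (limma adjusted p = 0.0294). The share called in either direction, 3 of 25, was near that of all clusters, and all 3 were higher. Called or not, 20 of the 25 differences were above 0, against 52.3% of all clusters, with a median of 0.21 against 0.01. At an unadjusted p under 0.05 there were 10 of the 25 and 3714 of the 14249 clusters. The STARD4 difference rests on the low VCaP vehicle signals given above. The HSD17B7 call was lost without the VCaP siControl pair (0.67, limma adjusted p = 0.0985), without the VCaP siPSF pair (0.51, limma adjusted p = 0.12) and without LNCaP siCTBP1-AS replicate 2 (0.63, limma adjusted p = 0.0518). INSIG1 had a difference of 0.89 ± 0.33 and SCAP one of -0.66 ± 0.24, neither of which passed (limma adjusted p = 0.107 and 0.0962). For HMGCS1 and ACAT2 the 2 lines differed by less than their errors. Across the 25 genes, the LNCaP and VCaP responses correlated at Pearson r = 0.74 and Spearman rho = 0.69, against r = 0.53 over all clusters tested, as a description of genes that share arrays and are not independent. When each set was reduced to 1 difference, NSDHL kept its call and STARD4 and HSD17B7 lost theirs. VCaP was measured in 1 set and in 5% serum, against 2.5% for LNCaP, so line, array set and serum cannot be told apart. The dose differed too, with 1 nM R1881 in VCaP and in LNCaP set 2 but 10 nM in LNCaP sets 1 and 3.

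**Figure D3:**
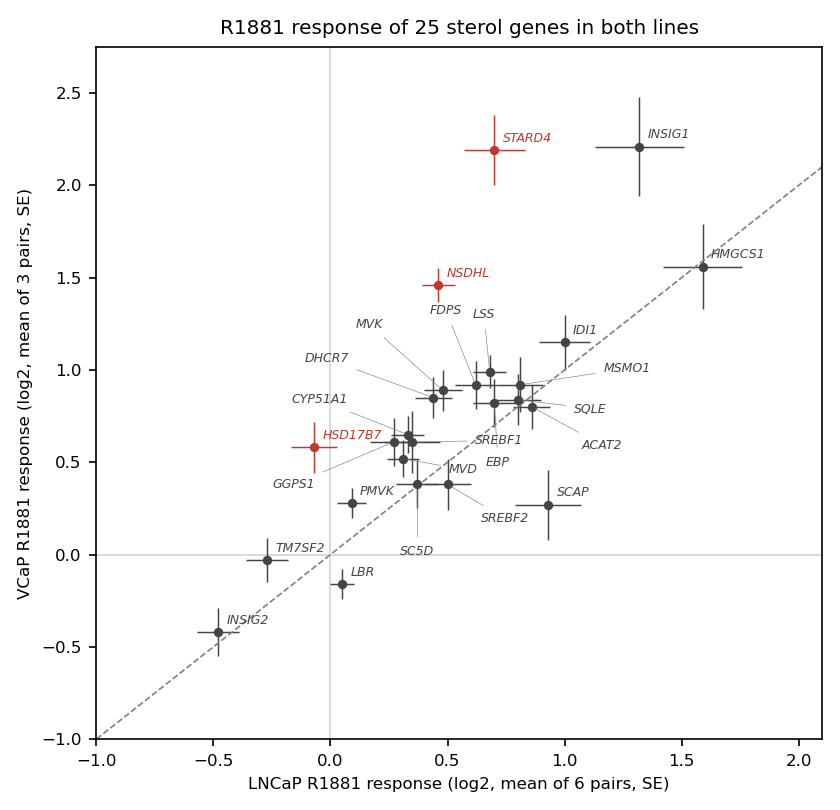
Mean R1881 response of the 25 genes in LNCaP (x axis, 6 pairs) against VCaP (y axis, 3 pairs), in log2 units with SE bars and a dashed line of equal response. The 3 genes whose responses differed between the lines, STARD4, NSDHL and HSD17B7, are red and lie above the line, and INSIG2 lies in the lower left, below 0 in both lines.

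The second comparison asks what the knockdowns did to these genes at a given treatment. With siCTBP1-AS in LNCaP, 1 of the 25 genes passed, DHCR7, while 6.53% of all clusters did (2.84% higher and 3.69% lower). DHCR7 was higher than with siControl by 0.39 with vehicle and 0.26 with R1881 in set 1, and by 0.76 and 0.24 in set 2. Its mean difference was 0.41 ± 0.10 (SE, 4 differences, limma adjusted p = 0.0356), a call that was lost without set 2 and when the fit held only the sets with this knockdown. ACAT2 had a mean difference of 0.40 ± 0.13 (limma adjusted p = 0.0844), SCAP one of -0.62 ± 0.23 (0.127) and CYP51A1 one of -0.50 ± 0.18 (0.126), which did not pass. Of 6 luminal markers tested, 2 were lower with siCTBP1-AS in LNCaP, HOXB13 by 0.44 (SE 0.11) and KLK3 by 0.37 (SE 0.10) on the log2 scale, with a median of -0.28 over the 6. The part of this in the genes' values was not tested.

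The siCTBP1-AS differences of some genes were not alike in LNCaP set 1 and set 2. CYP51A1 showed differences of 0.01 with vehicle and -0.01 with R1881 in set 1, but of -0.73 and -1.29 in set 2, where the siControl arrays read 9.34 and 9.97 and the siCTBP1-AS arrays 8.61 and 8.68. SCAP showed -0.19 and 0.06 in set 1 and -0.60 and -1.74 in set 2, with the largest gap under R1881, 9.88 against 8.14. LSS was higher with siCTBP1-AS in set 1, by 0.88 and 0.48, and showed 0.14 and -0.10 in set 2. SC5D showed -0.34 and 0.11 in set 1 and 0.67 and 0.44 in set 2.

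The set 2 minus set 1 difference of the siCTBP1-AS effect, a test added after these values were seen, passed for 4 of the 25 genes, against 11.7% of all clusters (5.17% higher and 6.58% lower). At an unadjusted p under 0.05 there were 9 of the 25 and 3828 of the 14249 clusters, so the sets differed across the array as well. It was -1.01 ± 0.18 for CYP51A1 (limma adjusted p = 0.0086), -1.11 ± 0.29 for SCAP (limma adjusted p = 0.0373), -0.66 ± 0.17 for LSS (limma adjusted p = 0.0327) and 0.67 ± 0.19 for SC5D (limma adjusted p = 0.0444). SREBF2 had -0.72 ± 0.23 and did not pass (limma adjusted p = 0.0692). With the siCTBP1-AS arrays of set 1 left out, this knockdown has 1 array per treatment in LNCaP, which is assumed to vary like the other groups. The effect then passed as lower for SCAP at -1.17, CYP51A1 at -1.01 and SREBF2 at -0.80, and as higher for SC5D at 0.55 and DHCR7 at 0.50, with 21.4% of all clusters called. With those of set 2 left out, under the same assumption, it passed as higher for LSS at 0.68 and ACAT2 at 0.63, with 5.64% of all clusters called. The label of the siRNA, the R1881 dose and the set cannot be told apart here.

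With siCTBP1-AS in VCaP, 0 of the 25 genes passed in the limma fit, and 0.379% of all clusters were called. At an unadjusted p under 0.05 there were 6 of the 25 and 1596 of the 14249 clusters. In both differences, with vehicle and with R1881, 19 of the 25 genes read lower than with siControl, against 34.6% of all clusters, and the median over the 25 was -0.24 against -0.03. FDPS was 7.96 with siControl and 7.30 with siCTBP1-AS under vehicle, and 8.96 and 8.21 under R1881. Its mean difference of -0.71 ± 0.16 did not pass (limma adjusted p = 0.107) and passed when the fit held only the VCaP set (limma adjusted p = 0.0315, with 1.35% of all clusters called). The VCaP set has 6 arrays, 1 per siRNA and treatment, so only the vehicle and the R1881 difference stand as replicates. The VCaP minus LNCaP difference of the siCTBP1-AS effect passed for 0 of the 25 genes in the limma fit, against 0.344% of all clusters called, and 7 of the 25 and 1853 of the 14249 clusters had an unadjusted p under 0.05. Its value nearest to passing was that of FDPS at -0.91 ± 0.19 (limma adjusted p = 0.0962). VCaP had only siCTBP1-AS #2, with 1 nM R1881, while the LNCaP effect averages both siRNA labels and both doses. In LNCaP the FDPS effect was 0.38 from set 1 alone and 0.02 from set 2 alone. This difference therefore mixes the line with siRNA label, dose, serum and set. Of 6 luminal markers tested, 4 had an unadjusted p under 0.05 with siCTBP1-AS in VCaP, with a median of -0.40 over the 6, and their part in these values was not tested.

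With siPSF, most of the 25 genes read lower in LNCaP and higher in VCaP, and no gene of the 25 passed in either line. In LNCaP, 0 of the 25 passed in the limma fit, and 1.09% of all clusters were called. At an unadjusted p under 0.05 there were 8 of the 25 and 2115 of the 14249 clusters. In both differences 16 of the 25 read lower, against 35.6% of all clusters. INSIG1 read 9.60 with siControl and 8.95 with siPSF under vehicle, and 11.02 and 9.93 under R1881. The mean differences were -0.87 ± 0.42 for INSIG1, -0.66 ± 0.19 for IDI1 and -0.64 ± 0.21 for HMGCS1, none of which passed (limma adjusted p = 0.376, 0.138 and 0.172). These 3 passed as lower when the fit held only set 3 (limma adjusted p = 0.0298, 0.0298 and 0.0316, with 6.22% of all clusters called). That fit rests on 4 arrays, 1 per siRNA and treatment. Its only replicates are the vehicle and the R1881 difference, so its p-values have little to rest on. In the main fit, the INSIG1 SE holds the spread of all knockdown differences. The SD of the INSIG1 differences was 0.30 with siPSF in LNCaP, 0.96 with siCTBP1-AS in LNCaP and 0.79 with siPSF in VCaP. The main p-value of INSIG1 is therefore not a measure of siPSF spread in LNCaP.

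In VCaP, 0 of the 25 passed with siPSF in the limma fit, and 2.32% of all clusters were called. At an unadjusted p under 0.05 there were 7 of the 25 and 2117 of the 14249 clusters. In both differences 15 of the 25 read higher, against 28.0% of all clusters. INSIG1 read 8.09 with siControl and 9.48 with siPSF under vehicle, and 10.91 and 11.17 under R1881. STARD4 read 5.22 and 6.30 under vehicle, and 7.92 and 8.21 under R1881, so for both genes the gap was larger with vehicle. HMGCS1 had a mean difference of 0.64 ± 0.21 (limma adjusted p = 0.156) and SQLE one of 0.54 ± 0.19 (limma adjusted p = 0.194). Both passed as higher when the fit held only the VCaP set (limma adjusted p = 0.0407 and 0.04, with 4.28% of all clusters called). Here too the only replicates of the knockdown are the vehicle and the R1881 difference. The VCaP minus LNCaP difference of the siPSF effect, also added after the values were seen, passed for 0 of the 25 in the limma fit, against 0.786% of all clusters called, and 9 of the 25 and 1750 of the 14249 clusters had an unadjusted p under 0.05. It was 1.28 ± 0.29 for HMGCS1 (limma adjusted p = 0.0814) and 1.07 ± 0.27 for IDI1 (limma adjusted p = 0.118). The siPSF arrays had 10 nM R1881 in LNCaP and 1 nM in VCaP, so line, dose, serum and set cannot be told apart. ERG also fell with siPSF in VCaP, by 1.64 on the log2 scale, and its part was not tested.

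**Figure D4:**
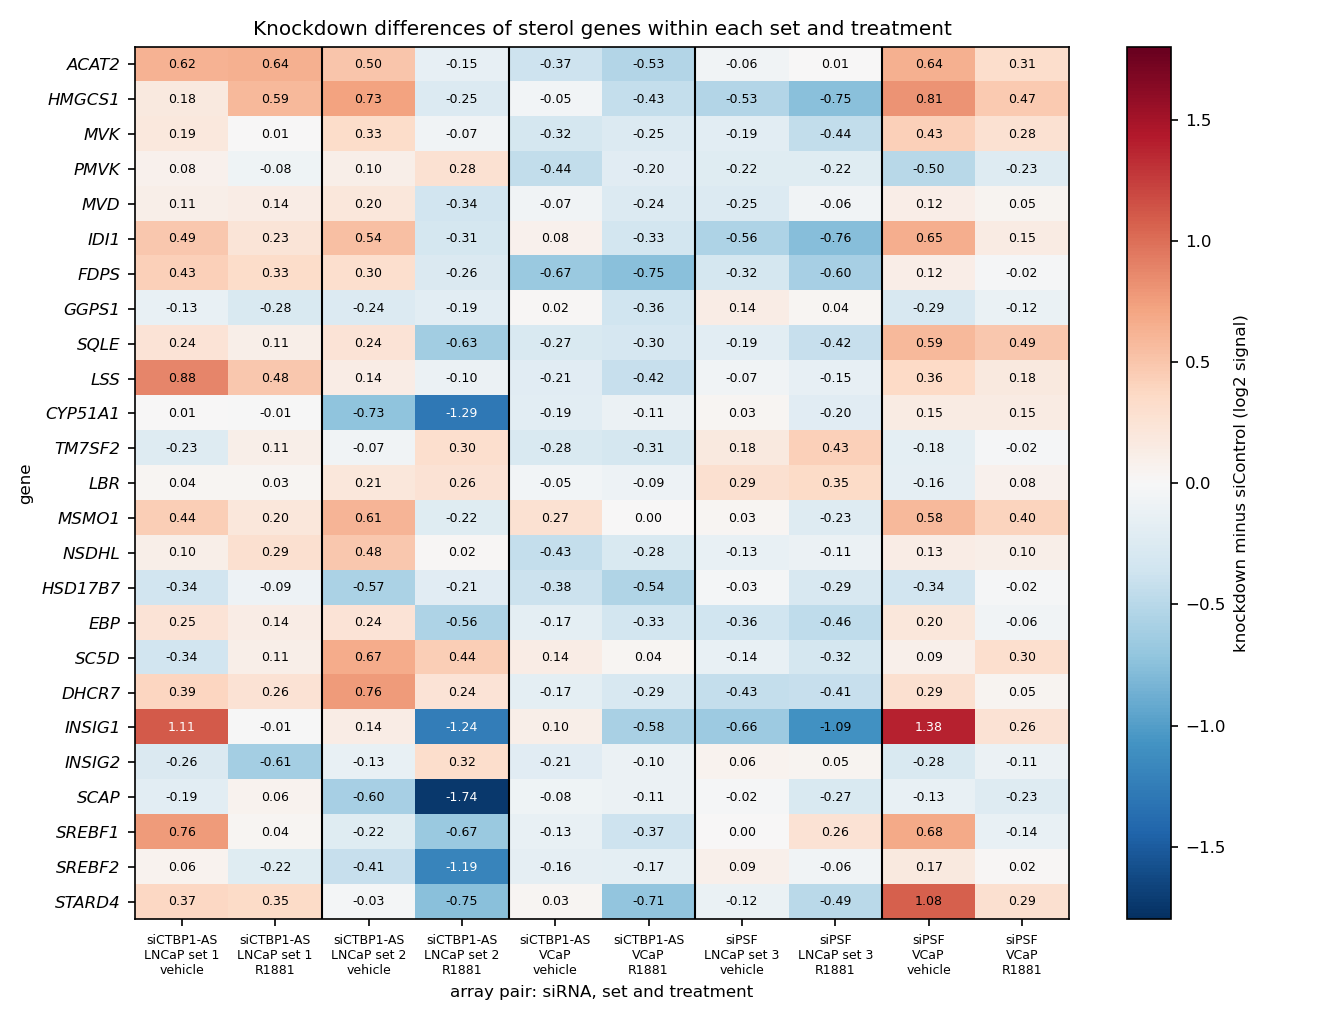
Differences in log2 signal between each knockdown and siControl of the same set and treatment (10 columns) for the 25 genes (rows), with blue for lower and red for higher. The blue CYP51A1, SCAP and SREBF2 cells of LNCaP set 2 with siCTBP1-AS and R1881 (-1.29, -1.74 and -1.19) stand out, and the siPSF columns are mostly blue in LNCaP and mostly red in VCaP.

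The third comparison asks whether the R1881 response itself differed after a knockdown. In the limma fit, 0 of the 25 genes passed for either siRNA, and 0% of all clusters were called. At an unadjusted p under 0.05 there were 5 of the 25 with siCTBP1-AS and 2 with siPSF, and 1131 and 706 of the 14249 clusters. The signed R1881 response was lower with siCTBP1-AS than with siControl in all 3 sets for 11 of the 25 genes. The share of all clusters was 11.8%. It was higher in all 3 for 0 of the 25, against 20.5% of all clusters. With siPSF the signed response was lower in both sets for 13 of the 25, against 22.6% of all clusters. It was higher in both for 2, TM7SF2 and LBR, against 33.2%. In LNCaP, TM7SF2 changed by -0.66 with siControl and by -0.41 with siPSF, a weaker fall. A lower signed response is a weaker rise for a gene that rises, but a deeper fall for one that falls. Most of the 25 genes rise, unlike all clusters, so these shares are not a like measure of weakening. Both knockdowns are read against the same VCaP siControl arrays.

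INSIG1 had the largest fitted differences of the 25 genes. Its R1881 response was 1.95 with siControl and 0.83 with siCTBP1-AS in set 1, and 2.06 and 0.68 in set 2. In VCaP it was 2.82 with siControl, 2.14 with siCTBP1-AS and 1.69 with siPSF. In set 3 it was 1.41 with siControl and 0.98 with siPSF. The response with knockdown was thus the smaller in all 5 comparisons, and the share of all clusters for which this holds was not counted. In set 1 the R1881 arrays read alike, at 10.58 and 10.57, and the vehicle array read higher with siCTBP1-AS, 9.74 against 8.64. In VCaP with siPSF both arrays read higher than with siControl. In sets 2 and 3 and in VCaP with siCTBP1-AS, the R1881 array read lower with the knockdown. The fit, which held 1 siControl response per line over the sets, gave -0.93 ± 0.18 with siCTBP1-AS (limma adjusted p = 0.617) and -0.99 ± 0.21 with siPSF (limma adjusted p = 0.893), and neither passed. IDI1 had -0.45 ± 0.14 and -0.43 ± 0.17, and STARD4 had -0.50 ± 0.20 with siCTBP1-AS, also without passing. By set, the median of the 25 genes was -0.10 in set 1, -0.55 in set 2 and -0.11 in VCaP with siCTBP1-AS, and -0.15 in set 3 and -0.14 in VCaP with siPSF. Over all clusters the medians were, in the same order, 0.03, 0.01 and 0.06 with siCTBP1-AS, and 0.02 and 0.05 with siPSF.

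**Figure D5:**
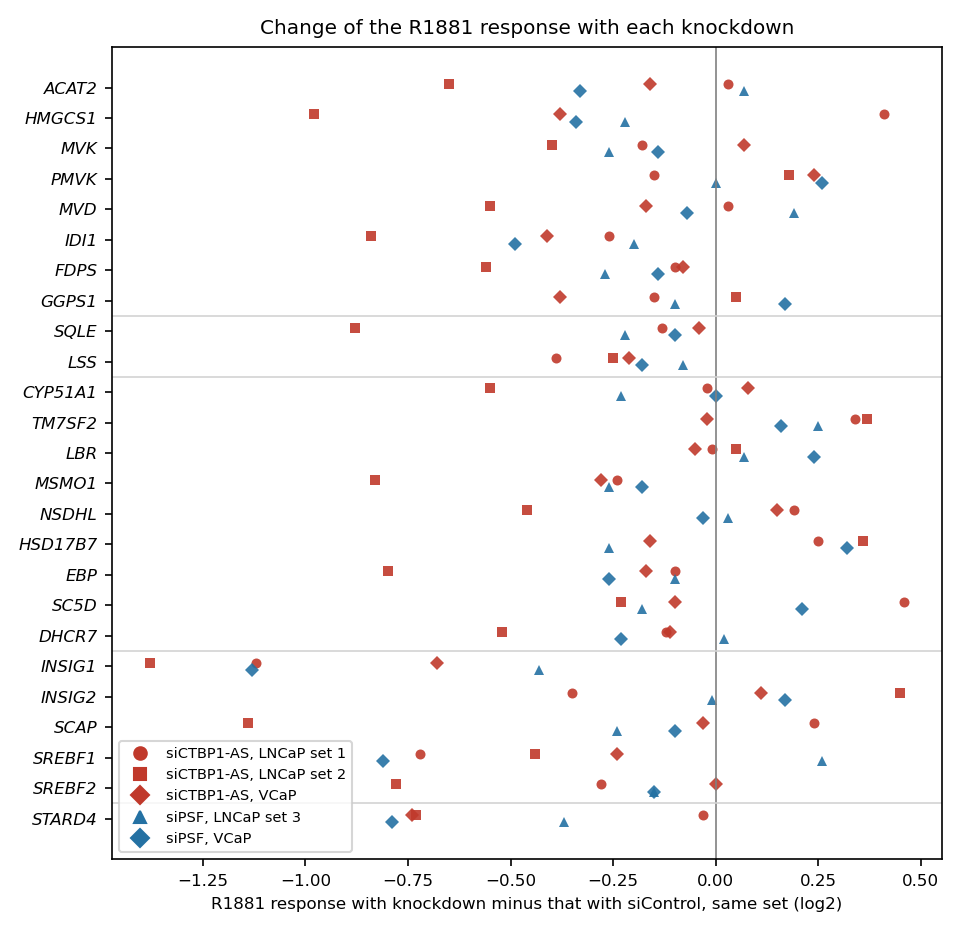
R1881 response with a knockdown minus that with siControl of the same set, in log2 units (x axis), for the 25 genes (rows). Red marks siCTBP1-AS, blue siPSF, and shapes give the set. INSIG1 lies left of 0 in all 5 comparisons, between -0.43 and -1.38, and the set 2 squares lie furthest left for many of the enzymes.

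Other genes of sterol handling were listed by role, and their R1881 calls stand against 18.4% of all clusters called in LNCaP and 29.8% in VCaP. With 3 to 11 genes a list, nothing particular to a list is read from its count. Of 7 tested genes for SREBP proteases and the degradation of sterol sensors, 1 rose and 2 fell in LNCaP, and 1 rose and 3 fell in VCaP. MBTPS2, a protease that cuts SREBP, rose in LNCaP by 0.20 ± 0.06. SPRING1, which supports that cutting, fell by 0.34 on the log2 scale (SE 0.08) in LNCaP and by 0.41 (SE 0.12) in VCaP, and ERLIN2, a membrane protein of the endoplasmic reticulum, fell by 0.29 (SE 0.08) and 0.37 (SE 0.12). ERLIN1 fell by 0.52 (SE 0.12) and AUP1 rose by 0.27 ± 0.08 in VCaP.

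Of 11 genes of sterol trafficking and esters, 3 rose and 1 fell in LNCaP, and 1 rose and 2 fell in VCaP. SOAT1, which makes cholesteryl esters, rose by 0.47 ± 0.06 in LNCaP and 0.54 ± 0.08 in VCaP. NPC1, which exports sterol from lysosomes, rose in LNCaP by 0.88 ± 0.18, with single-pair differences from 0.06 to 1.67, and OSBP, a sterol exchange protein, by 0.26 ± 0.07. GRAMD1C, a sterol transporter of membrane contacts, fell by 0.89 (SE 0.19) in LNCaP and by 0.82 (SE 0.26) in VCaP, and TMEM97 fell by 0.56 (SE 0.12) in VCaP. Of 5 genes of the liver X receptor and sterol efflux, 2 fell in LNCaP and 0 passed in VCaP. They were MYLIP, a ligase that degrades lipoprotein receptors, by 0.39 (SE 0.07), and ABCG1, a sterol exporter, by 0.38 (SE 0.12).

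Of 10 genes of the prenyl branches, which use the same isoprenoid diphosphates, 2 fell in LNCaP, and 1 rose and 4 fell in VCaP. PDSS2 and COQ2, of coenzyme Q synthesis, fell by 0.26 (SE 0.07) and 0.25 (SE 0.07) in LNCaP and by 0.67 (SE 0.10) and 0.30 (SE 0.09) in VCaP. PDSS1 fell by 0.61 (SE 0.17) and FNTB, a farnesyltransferase subunit, by 0.37 (SE 0.08) in VCaP, where RABGGTA rose by 0.39 ± 0.09. None of 3 tested genes that modify sterols passed in the R1881 response of either line.

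With siCTBP1-AS in LNCaP, 3 of the 11 trafficking and ester genes rose, against 2.84% of all clusters called higher. They were GRAMD1C by 1.41 ± 0.35, NCEH1, a cholesteryl ester hydrolase, by 0.83 ± 0.16, and LIPA, the lysosomal acid lipase, by 0.52 ± 0.10. GRAMD1C was higher by 0.38 and 0.36 in set 1 and by 2.0 and 2.9 in set 2, so most of its change came from set 2. MYLIP rose by 0.57 ± 0.10, and NUS1, of the dolichol branch, fell by 0.34 (SE 0.08). With siPSF in VCaP, ERLIN2 fell by 0.68 (SE 0.14) and CYP7B1, an oxysterol hydroxylase, by 0.65 (SE 0.14). None of the other lists' genes passed with siCTBP1-AS in VCaP or with siPSF in LNCaP in the limma fit.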

How the data were processed

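Values are log2 signals deposited by the authors, made with RMA in Affymetrix Expression Console 1.1.1, per the submitters' processing notes, from HuGene-1_0-st arrays. Of 33297 transcript clusters, 19461 have 1 symbol in the platform annotation, 1753 have several and 12083 have none. Each gene took its cluster of highest mean, and clusters with several symbols counted. The 25% dimmest were left out, which left 14249 clusters. Models were fitted across these with limma 3.58.1 (R 4.3.3), with Benjamini-Hochberg adjustment at 0.05, after being tested on simulated data. The R1881 fit had the vehicle and R1881 pair as a block and the knockdown fit the set and treatment. The fit of the changed response had the pair as a block, 1 R1881 term per line and a term per knockdown. In LNCaP siControl arrays, where set and replicate number coincide, deviations of same-numbered arrays correlated at 0.79, 0.85 and 0.70, and of others at -0.64 to -0.09. Same-numbered arrays share a set and the sets differ in scale. These values therefore reflect the set and cannot show any closer pairing of a vehicle with an R1881 array.

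The members and lists were chosen with earlier results of these data known. All listed genes are named, together with pathway genes that passed in an R1881 or knockdown comparison, SFPQ and KLK3. Differences between lines or sets in the knockdown effect were added after values were seen. Alternatives were the filter, scaling, blocks, the sets fitted and leaving out arrays. Arrays have no read depth, and their number limits the precision.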

Additional observations from a re-analysis of the deposited data

Results flagged for a closer look

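The R1881 response differed between the lines, by a test of the difference itself, for 3 of the 25 genes, against 11.5% of all clusters, a like share. All 3 were higher in VCaP, against 5.21% of all clusters called higher. STARD4 responded more in VCaP than in LNCaP by 1.50 on the log2 scale, NSDHL by 1.00 and HSD17B7 by 0.65. The VCaP steps lay above all LNCaP steps for STARD4, NSDHL and HSD17B7, but this is not particular to them. LSS, whose difference did not pass, had LNCaP steps up to 0.82 and VCaP steps from 0.91. The SCAP steps went the other way, from 0.44 in LNCaP and up to 0.31 in VCaP. The share of all clusters without overlap was not counted. The STARD4 difference rests on VCaP vehicle signals that are low on their arrays. The HSD17B7 call was lost in 6 of 16 alternatives, among them those without the VCaP siControl pair, the VCaP siPSF pair or LNCaP siCTBP1-AS replicate 2. HSD17B7 is read with its pseudogene, and all 3 differences set 1 VCaP array set against 3 LNCaP sets. The VCaP set had 1 nM R1881 and 5% serum, while LNCaP had 2.5% serum and 10 nM in sets 1 and 3.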

How the results depend on the processing

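Of 262 counts over all comparisons and alternatives, 230 stayed within 1.5 times the main count and 32 moved. Of 3261 values of single genes, 2992 kept direction and side of the threshold, 77 lost and 46 gained a call, 146 changed sign while not called, and 0 reversed. The cause of these moves was not tested, other than that fewer arrays or pairs entered a fit.

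Without the replicate block, 1 gene rose and 0 fell in each line, and 0 differed between the lines, while 172, 98 and 3 of all clusters were called against 2620, 4242 and 1634 with it. The LNCaP siControl fit gave 0 genes, 1 after median centring or quantile normalization, and 13 with the replicate block, with 36 clusters against 61, 72 and 731, and 58 with the 50% dimmest left out. In LNCaP, 2 genes fell with 50% left out or after quantile normalization, and 1 to 2 fell when arrays were left out. In VCaP, 0 genes fell with the siRNA terms shared by the lines, and 0 when 1 pair was left out. That shared fit called 1341, 2583 and 537 clusters for LNCaP, VCaP and their difference. With 1 difference per array set, 1 gene differed between the lines, with 1187 and 152 clusters called in LNCaP and between the lines, and this was not run for VCaP alone, which has 1 set. Leaving out arrays gave 2 to 6 genes, the 6 without LNCaP siControl replicate 2.

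For siCTBP1-AS in LNCaP, 0 genes were higher with shared terms, with no block and with only the sets of this knockdown (80, 1 and 40 clusters against 930), and leaving out arrays gave 2 higher and 0 to 3 lower. With only the sets of a knockdown, 1 gene was lower with siCTBP1-AS in VCaP (192 clusters against 54), 3 were lower with siPSF in LNCaP (887 against 156) and 2 higher with siPSF in VCaP (610 against 330). Between the lines, leaving out arrays gave 0 to 1 higher and 0 to 3 lower for siCTBP1-AS. For the set 2 minus set 1 difference, 0 genes were higher with no filter and 2 after quantile normalization. With no block, 0 clusters were called for siCTBP1-AS in VCaP and for siPSF in either line. Leaving out single arrays took the siPSF and VCaP siCTBP1-AS fits to between 0 and 60 clusters, and the LNCaP siCTBP1-AS fit called 3048 without that knockdown's set 1 arrays. Between the lines, leaving out arrays gave 1 to 1517 clusters for siCTBP1-AS (49 with all) and 1 to 18 for siPSF (112 with all). Without the VCaP siControl pair, 2113 clusters were called in VCaP and 561 between the lines, and without the VCaP siCTBP1-AS or siPSF pair 899 and 1043 between the lines. The LNCaP siControl fit called 0 to 22 clusters with 1 replicate left out. With 50% left out, siCTBP1-AS called 33 clusters in VCaP and 30 between the lines, and siPSF in VCaP called 202 with shared terms.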
